A study of Mus musculus with 19 samples.

Results

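Before a long-chain fatty acid can be stored or oxidised it has to enter the cell and be joined to coenzyme A, and 2 gene families carry out these steps. The 10 genes described here were taken by symbol, 5 of the fatty acid transport protein family (*Slc27a1* to *Slc27a5*) and 5 of the long-chain acyl-CoA synthetase family (*Acsl1* and *Acsl3* to *Acsl6*), out of 55740 genes in any of the 3 expression tables. All 10 are listed among the 55573 genes of the 7-tissue table and the 55487 genes of the brown fat table. The inguinal fat table holds 13756 genes and lists 8 of the 10, without *Slc27a5* and *Acsl6*. Proteins of the Slc27a family sit in membranes, promote the uptake of fatty acids and also have acyl-CoA synthetase activity, with preferences that reach to very-long-chain fatty acids and bile acids. Acsl enzymes esterify long-chain fatty acids to coenzyme A at the membranes of mitochondria, endoplasmic reticulum and lipid droplets. The acyl-CoA they form is then routed to β-oxidation, triglyceride or phospholipid synthesis, and heat production in brown and beige fat draws on this supply.

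The study asked how Musclin, a peptide secreted by skeletal muscle, acts on fat, and it measured poly(A) RNA in 19 libraries by RNA-Seq. The first table holds 1 library each of brain, small intestine, liver, heart, tibialis anterior (TA) muscle, and white and brown adipose from C57BL/6J wild-type (WT) mice on chow, whose exact age and white adipose depot are not stated. The other 2 tables hold inguinal white adipose tissue (iWAT), a subcutaneous depot that can form beige adipocytes, and interscapular brown adipose tissue (BAT), with 3 WT and 3 MCK-Musclin libraries in each. These were male mice, 5 months old, on chow and after 1 week at 8 °C, so every adipose comparison of genotypes was made under cold exposure. In MCK-Musclin mice a *Musclin* transgene stands under the promoter of muscle creatine kinase, which drives it in skeletal muscle. The line was made from 5 founder lines crossed to C57BL/6J, and which of them was sequenced is not stated.

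Levels are given as FPKM, fragments scaled by exon length and by the size of the library, which allows levels of different genes to be compared per length. Where 3 values of a group are given, they are those of libraries 1, 2 and 3 in that order. From the spacing of the lowest FPKM values, the libraries of the 7 tissues held about 16000000 to 18400000 fragments and those of BAT about 16800000 to 21100000, whereas that of iWAT could not be estimated. The transgene's gene is listed as *Ostn*. It was at 0 FPKM in all WT libraries of BAT, with 37.9, 31.6 and 30.3 in those of MCK-Musclin mice. The iWAT libraries had 0, 0 and 0.225 in WT mice and 0, 5.17 and 4.21 with the transgene, so that *Ostn* gave no check of the label of MCK-Musclin library 1. The summed level of 12 fast skeletal muscle markers in that library was 11.2 FPKM, near the 11.2 of WT library 1, against 164 and 195 in the other 2 MCK-Musclin libraries and 854 and 4794 in the other 2 WT libraries. In bulk tissue, fewer cells of a type and less RNA per cell cannot be told apart. Adipocyte identity was clear in both depots, with all 10 general adipocyte markers expressed, and their summed FPKM was 17733 to 18862 in WT and 15910 to 17574 in MCK-Musclin iWAT.

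The 10 genes lie on 8 mouse chromosomes of the GRCm38 build and are all protein-coding. In the GENCODE annotation, *Slc27a1* spans chr8:71568882-71587302 on the plus strand, *Slc27a2* chr2:126552407-126588243 (plus), *Slc27a3* chr3:90385239-90389938 (minus), *Slc27a4* chr2:29802634-29817522 (plus) and *Slc27a5* chr7:12988346-12998192 (minus). *Acsl1* spans chr8:46471037-46536051 (plus), *Acsl3* chr1:78657825-78707743 (plus), *Acsl4* chrX:142317993-142390535 (minus), *Acsl5* chr19:55251938-55297720 (plus) and *Acsl6* chr11:54303798-54364756 (plus). FPKM was computed over the exons of each gene and the alignment did not use strand, so exons shared with a neighbour can take its fragments. *Acsl3* shares 244 exonic bases with *Utp14b* on the same strand, and *Acsl5* shares 404 with *Zdhhc6* on the opposite strand. Exons of *Acsl1*, *Slc27a2* and *Acsl6* overlap those of the opposite-strand genes *Gm45244*, *Gm26697* and *Gm12224* by 1039, 419 and 202 bases, and the other 5 genes share none.

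The 250 bases upstream of the start site are shown for the genes on which the results turn, *Acsl5* and *Slc27a4*, which were both highest in small intestine, *Acsl3* and *Acsl6*, both highest in brain, and *Slc27a2*, highest in liver. They were taken from the RefSeq promoter table of GRCm38.p6, which holds promoters for 9 of the 10 genes, 14 in all, and *Slc27a5* is named only. The windows are chr19:55253119-55253368 for *Acsl5*, chr2:29802384-29802633 for *Slc27a4*, chr1:78657575-78657824 for *Acsl3*, chr11:54303574-54303823 for the first of 3 *Acsl6* start sites and chr2:126552774-126553023 for *Slc27a2*, all read 5′ to 3′ on the plus strand. Capitals mark matches, on either strand, to the GC box (GGGCGG), the TATA box (TATAAA), the CCAAT box (CCAAT), the nuclear receptor half-site (AGGTCA), the cAMP response half-site (TGACG) and the E-box (CACGTG).
Acsl5: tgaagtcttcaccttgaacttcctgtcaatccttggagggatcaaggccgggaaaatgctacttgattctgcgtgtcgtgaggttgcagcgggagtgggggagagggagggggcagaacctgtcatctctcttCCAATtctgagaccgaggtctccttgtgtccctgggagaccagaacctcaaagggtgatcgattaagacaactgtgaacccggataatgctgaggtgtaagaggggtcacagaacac
Slc27a4: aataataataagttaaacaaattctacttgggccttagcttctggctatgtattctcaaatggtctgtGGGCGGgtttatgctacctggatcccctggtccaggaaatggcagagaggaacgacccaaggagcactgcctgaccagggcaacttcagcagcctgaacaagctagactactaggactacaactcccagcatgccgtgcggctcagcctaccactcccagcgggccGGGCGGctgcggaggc
Acsl3: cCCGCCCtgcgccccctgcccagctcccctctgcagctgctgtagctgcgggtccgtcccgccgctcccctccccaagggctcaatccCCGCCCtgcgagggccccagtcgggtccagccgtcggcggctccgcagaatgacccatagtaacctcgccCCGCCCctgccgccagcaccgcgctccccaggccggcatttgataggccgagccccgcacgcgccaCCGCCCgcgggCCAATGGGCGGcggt
Acsl6: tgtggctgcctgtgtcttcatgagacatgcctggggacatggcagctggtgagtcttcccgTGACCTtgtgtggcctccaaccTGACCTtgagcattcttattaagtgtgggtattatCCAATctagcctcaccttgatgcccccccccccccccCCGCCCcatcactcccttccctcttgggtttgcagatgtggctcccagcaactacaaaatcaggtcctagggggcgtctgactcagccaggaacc
Slc27a2: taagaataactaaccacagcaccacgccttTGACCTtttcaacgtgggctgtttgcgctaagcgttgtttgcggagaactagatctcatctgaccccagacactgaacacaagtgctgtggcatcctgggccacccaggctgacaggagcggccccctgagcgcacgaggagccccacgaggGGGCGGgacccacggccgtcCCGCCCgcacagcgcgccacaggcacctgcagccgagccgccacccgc
No 2 of the capitalised matches in these 5 windows overlap. Among all 32851 promoters of the table, windows of the same length held a GC box in 32.7% of cases, a TATA box in 12.4%, a CCAAT box in 33.9%, a nuclear receptor half-site in 14.0%, a cAMP response half-site in 17.8% and an E-box in 6.02%. The intestinal pair did not share a motif of this set. *Acsl5* held 1 CCAAT box 117 bases upstream of its start, whereas *Slc27a4* held 2 GC boxes, 182 and 16 bases upstream. In the windows shown, the brain pair both held a GC box and a CCAAT box. In *Acsl3* these were 5 GC boxes and a CCAAT box directly beside the GC box nearest to the start, and *Acsl6* held 1 of each and 2 nuclear receptor half-sites. Of the *Acsl6* windows not shown, chr11:54303954-54304203 held 2 GC boxes and no CCAAT box. The window chr11:54314653-54314902 held 1 GC box and 1 CCAAT box. Neither held a nuclear receptor half-site. *Slc27a2* held 2 GC boxes and a nuclear receptor half-site 220 bases upstream. The *Acsl3* window had 75.6% G+C and 28 CpG dinucleotides and that of *Acsl5* 52.8% and 7, against medians of 52.4% and 6 over all promoters. These are matches of letters, and no binding was measured.

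The leading transporter differed among groups of tissues. *Slc27a1* led in white adipose, TA muscle and heart, with *Slc27a4* next in these 3. *Slc27a2* led in liver and brown adipose, and *Slc27a4* in small intestine and brain. The lead in brain was narrow, at 44.6% of the family's FPKM against 44.2% for *Slc27a1*. The Slc27a family summed to 648 FPKM in liver, 166 in small intestine, 131 in white adipose and 115 in brown adipose, and to 44.4 in brain, 44.2 in heart and 23.0 in TA muscle. *Slc27a1*, which encodes the fatty acid transport protein of fat and muscle, had 117 FPKM in white adipose, followed by 42.5 in brown adipose, 38.0 in heart, 20.1 in TA muscle, 19.6 in brain, 3.95 in small intestine and 1.26 in liver. It made up 89.5% of the family's FPKM in white adipose, 87.2% in TA muscle and 85.9% in heart. *Slc27a2*, a very-long-chain acyl-CoA synthetase of liver and kidney, had 509 FPKM in liver and was the 126th most abundant gene there. Its next levels were 66.7 in brown adipose and 36.3 in small intestine, and it stayed at 2.83 in brain, 1.51 in white adipose, 0.356 in TA muscle and 0.0975 in heart. The 2 fat libraries therefore differed in their leading transporter, with *Slc27a2* at 58.0% of the family in brown adipose and at 1.15% in white adipose.

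*Slc27a4*, the transport protein of the intestinal epithelium, had 125 FPKM in small intestine, 6.29 times its level in brain (19.8), the next tissue. It had 9.93 in white adipose, 8.20 in liver, 6.02 in heart, 4.88 in brown adipose and 2.59 in TA muscle, and was above 2 FPKM in every tissue. *Slc27a5*, the bile acyl-CoA synthetase, had 130 FPKM in liver and is listed at 0 in the other 6 tissues. *Slc27a3* was the least abundant of the 10 genes at its peak, with 2.32 FPKM in white adipose, 2.16 in brain, 1.14 in small intestine, 0.830 in brown adipose, 0.128 in liver, 0.124 in heart and 0 in TA muscle.

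**Figure D1:**
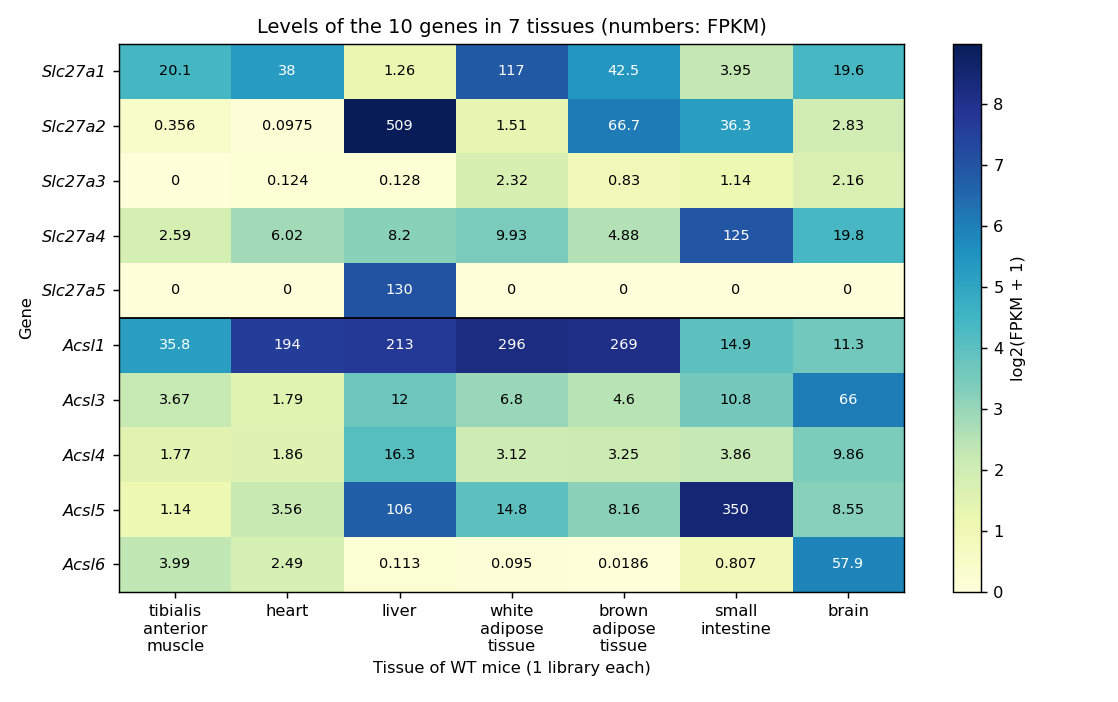
FPKM of the 10 genes (rows) in 1 library of each of 7 tissues (columns), with the colour on a log2(FPKM + 1) scale and the FPKM printed in each cell. The darkest cells are *Slc27a2* in liver (509), *Acsl5* in small intestine (350) and *Acsl1* in white adipose (296), and *Slc27a5* is above 0 in liver only among these libraries.

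The synthetases divided the tissues in a similar way. *Acsl1*, the main isoform of adipocytes, heart and liver, was the most broadly abundant gene of the 10, with 296 FPKM in white adipose, 269 in brown adipose, 213 in liver and 194 in heart, then 35.8 in TA muscle, 14.9 in small intestine and 11.3 in brain. Its highest tissue held 28.6% of its summed level, the lowest such share among the 10 genes. It made up 95.2% of the Acsl family in heart, 94.4% in brown adipose, 92.3% in white adipose, 77.2% in TA muscle and 61.4% in liver. *Acsl5*, the isoform of the intestinal epithelium and liver, had 350 FPKM in small intestine and 106 in liver, and stood at 14.8 in white adipose, 8.55 in brain, 8.16 in brown adipose, 3.56 in heart and 1.14 in TA muscle. It made up 92.0% of the family in small intestine, where *Acsl1* made up 3.93%.

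In brain, other isoforms led. *Acsl3*, which resides in the endoplasmic reticulum and on lipid droplets, had 66.0 FPKM in brain, 5.50 times its level in liver, the next tissue, and 10.8 in small intestine, 6.80 in white adipose, 4.60 in brown adipose, 3.67 in TA muscle and 1.79 in heart. *Acsl6*, the isoform linked to docosahexaenoic acid in neurons, had 57.9 FPKM in brain, 3.99 in TA muscle and 2.49 in heart, and between 0.0186 and 0.807 in the other 4 tissues. *Gm12224*, whose exons overlap those of *Acsl6* on the opposite strand, had 56.99 FPKM in TA muscle, 3.47 in heart and 0 in every other tissue. Its part in the *Acsl6* levels of TA muscle and heart was not tested. *Acsl6* and *Acsl3* together supplied most of the family in brain, with shares of 37.7% and 43.0%. *Acsl4*, which prefers arachidonic acid, had the narrowest range of the synthetases, from 16.3 FPKM in liver and 9.86 in brain through 3.86 in small intestine, 3.25 in brown adipose and 3.12 in white adipose to 1.86 in heart and 1.77 in TA muscle.

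With 1 library per tissue these orders have no replicate check. Of the 10 genes, 6 had at least 60% of their summed level in 1 tissue, as had 31.4% of the 18327 genes that reached 1 FPKM in any tissue. Under median-ratio scaling *Acsl3* (55.8%) and *Acsl5* (59.98%) were below 60%, and the share of all genes under that scaling was not counted. The highest tissue was the same for all 10 genes when FPKM was rescaled to the same total in each library (TPM). It was the same for 8 after median-ratio scaling, under which *Acsl1* was highest in liver, 1.02 times its level in brown adipose, and *Slc27a3* in brain, 1.16 times its level in white adipose. Neither of these pairs of neighbours, nor that of *Acsl1* in white and brown adipose (1.10-fold), can be ordered from single libraries.

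**Figure D2:**
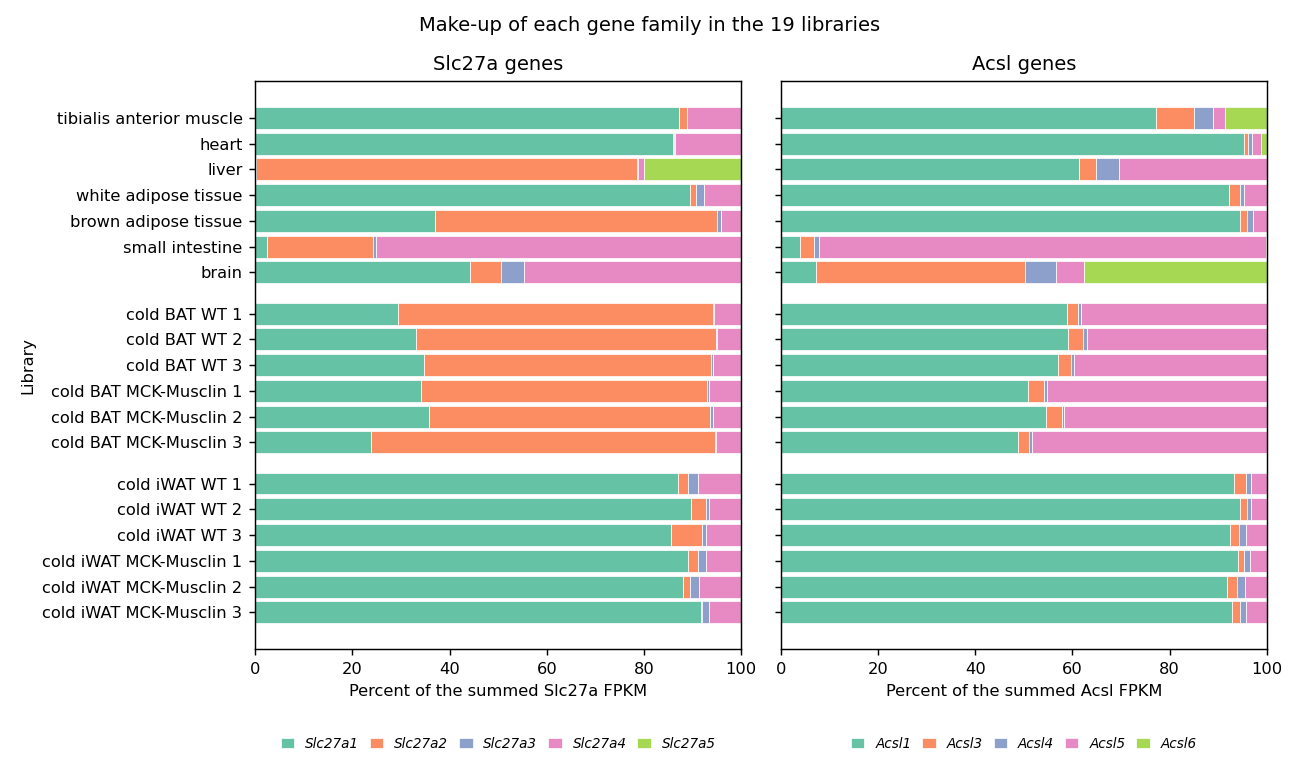
Share of each gene in the summed FPKM of the Slc27a genes (left) and the Acsl genes (right), as horizontal bars to 100%, for the 7 tissue libraries and the 12 cold-exposed fat libraries. *Acsl5* takes 92.0% of the Acsl bar in small intestine and 37.1% to 48.3% in cold-exposed BAT, but 2.86% in the brown adipose library of the 7 tissues.

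The genes whose levels over the 7 libraries were nearest to those of each member were found by the root mean square difference of log2(FPKM + 1) over 18280 genes. *Hgd*, an enzyme of tyrosine breakdown, was nearest to *Slc27a5* (0.0092), with 129 FPKM in liver. *Rnf157* was nearest to *Acsl6* (0.27), *Nsmf* to *Acsl3* (0.42), *Avpi1* to *Acsl4* (0.40), *Papss2* to *Acsl5* (0.62), *Lamb2* to *Slc27a1* (0.63), *1810055G02Rik* to *Slc27a4* (0.50) and *Grhl1* to *Slc27a3* (0.10). *Acsl1* and *Slc27a2* had no near neighbour, the closest being *Ech1*, an enzyme of fatty acid β-oxidation, at 0.88 and *H2-Q10* at 1.29. With 7 points of 1 library each, likeness is a description.

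The other genes of the pathway were divided among the tissues as well. Of 16 genes of fatty acid and acyl-CoA binding, *Fabp4*, the adipocyte fatty acid binding protein, was highest in white (6374 FPKM) and brown adipose (3720), *Fabp3* in heart (1451) and TA muscle (196), *Fabp1* in liver (6259) and small intestine (1813), and *Dbi*, the acyl-CoA binding protein, in brain (167). Among 13 other acyl-CoA synthetases, the acetyl-CoA synthetase *Acss1* led in heart (108 FPKM), brown adipose (69.5) and small intestine (35.3), the medium-chain enzyme *Acsm1* in liver (203), *Acss3* in white adipose (22.2), *Acsbg1* in brain (35.0) and *Acss2* in TA muscle (6.67). *Acot13* led the 12 acyl-CoA thioesterases, which release the fatty acid again, in every tissue except brain, where *Acot7* did (170 FPKM). In the carnitine shuttle, which carries acyl groups into mitochondria, *Cpt1b* led in brown adipose (154 FPKM) and heart (90.1), *Crat* in TA muscle (118) and white adipose (44.1), *Crot* in liver (108), *Cpt2* in small intestine (40.1) and *Cpt1c* in brain (24.2).

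In cold-exposed iWAT, MCK-Musclin mice were compared with WT mice, which addresses the question of what the transgene changes in this depot. Fold changes are differences of log2(FPKM + 1), which understate the change of genes with low FPKM, tested with limma over 12197 genes whose mean FPKM reached 1. All 8 listed members passed that filter. At an unadjusted p under 0.05, 1 of the 8 was lower (*Slc27a2*), where 3.44% of all genes tested were, and 0 were higher, where 13.1% of all genes were. The split over all genes depended on the scaling, with 5.39% lower and 9.82% higher under TPM, 6.77% and 8.51% under median-ratio scaling, and 0.41% and 38.4% after centring on the general adipocyte markers. After Benjamini-Hochberg adjustment in limma, 0 of the 8 and 0% of all genes tested had a p under 0.05, and the smallest adjusted p of any gene was 0.0912. The median log2 fold change was -0.10 over the 4 transporters and -0.17 over the 4 synthetases, against 0.06 over all genes tested.

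*Slc27a2* had 2.05, 3.97 and 6.67 FPKM in the WT libraries and 2.18, 1.36 and 0.117 in the MCK-Musclin ones. MCK-Musclin library 1 lay above WT library 1, so the groups overlapped, and the lowest value by far was in MCK-Musclin library 3. WT mice averaged 4.23 ± 2.32 and MCK-Musclin mice 1.22 ± 1.04 FPKM (SD, n = 3 per genotype). The log2 fold change was -1.26 (standard error 0.45, 95% interval -2.32 to -0.21, adjusted p = 0.235 in limma with Benjamini-Hochberg adjustment). The call at the unadjusted threshold rested on single libraries and was lost without MCK-Musclin library 3 (log2 fold change -0.83), WT library 3 (-0.94) or WT library 2 (-1.25). Without MCK-Musclin library 1 it was kept, at -1.59. Ordered by *Slc27a2*, the 6 libraries fell in the same order as by *Ucp1*, the uncoupling protein of brown and beige fat, which had 130, 248 and 346 FPKM in WT and 173, 31.6 and 2.91 in MCK-Musclin mice. The summed level of the 9 brown and beige fat markers listed, none of them at 0 throughout, gave the same order, with 571 to 1067 FPKM in WT and 116 to 644 in MCK-Musclin mice. *Ucp1* is among these 9, so the order of the sum is not a separate observation. Of the 8 of these markers that passed the filter, 8 were lower and 5 had an unadjusted p under 0.05. At that threshold 3.44% of all genes tested were lower. Each listed member was compared in this way with *Ucp1* and several marker sums, and no other gave an identical order. How many of all genes share this order was not counted. In iWAT the rank correlation of *Slc27a2* with the summed B cell markers was -0.886, and in BAT that with *Ucp1* was 0.657. The part of brown and beige fat cells in the difference of *Slc27a2* in iWAT was not tested.

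*Acsl3* was the only member in iWAT with all 3 MCK-Musclin values under the lowest WT value, a pattern shown by 5.44% of all genes tested. It had 11.4, 7.19 and 7.30 FPKM in the WT libraries and 6.18, 6.47 and 5.93 in the MCK-Musclin ones. WT library 1 stood above the other 5, which lay between 5.93 and 7.30. The log2 fold change was -0.40 (standard error 0.17, 95% interval -0.80 to 0.01, limma adjusted p = 0.311), and it was -0.20 without WT library 1. Without WT library 2 (-0.50) or WT library 3 (-0.49) it passed the unadjusted threshold. *Utp14b*, the same-strand neighbour, was also highest in WT library 1, with 2.96 FPKM against 0.976 to 1.45 in the other 5, and its part in the level of *Acsl3* was not tested. For 0 members did all 3 MCK-Musclin values exceed the highest WT value, as they did for 17.9% of all genes tested.

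In the other 6 members the groups overlapped in iWAT. *Acsl1* had 453, 454 and 365 FPKM in the WT libraries and 437, 297 and 330 in the MCK-Musclin ones. MCK-Musclin library 1 stood with the WT libraries and the other 2 lay below them, with a log2 fold change of -0.27 (95% interval -0.67 to 0.13, limma adjusted p = 0.465), and of -0.43 without MCK-Musclin library 1, then past the unadjusted threshold (limma adjusted p = 0.251). *Slc27a1* had 84.2, 112 and 90.6 FPKM in WT and 91.4, 78.7 and 99.1 in MCK-Musclin libraries, and its fold change of -0.09 had an interval from -0.42 to 0.24. *Acsl5* had 15.6 to 17.1 FPKM in WT and 14.8 to 16.1 in MCK-Musclin libraries (log2 fold change -0.08, interval -0.29 to 0.14), and *Slc27a4* had 7.62 to 8.64 and 7.15 to 7.74 (-0.12, interval -0.35 to 0.11). *Acsl4* had 4.31 to 5.43 FPKM in WT and 4.59 to 5.74 in MCK-Musclin libraries, with a fold change of 0.05. *Slc27a3* had 2.00, 0.745 and 1.03 FPKM in WT and 1.74, 1.62 and 1.68 in MCK-Musclin libraries. WT library 1 was the highest of the 6 and the other 2 WT libraries were the lowest, and the log2 fold change of 0.29 (limma adjusted p = 0.520) was 0.51 without WT library 1, then past the unadjusted threshold.

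Markers of other cells moved with the genotype in the same iWAT libraries. The summed level of 7 B cell markers was 132 to 254 FPKM in WT and 285 to 380 in MCK-Musclin libraries, that of 8 T cell markers 107 to 162 and 205 to 235, and that of 5 lymph node stroma markers 150 to 327 and 347 to 564. At an unadjusted p under 0.05, 7 of 7, 7 of 8 and 5 of 5 of these markers were higher in limma, and 10 of 10 general adipocyte markers had a negative fold change, with 2 under 0.05. All 12 fast skeletal muscle markers had a negative fold change as well (median log2 fold change -2.19), with overlapping groups and 0 under 0.05, and of 7 macrophage markers 2 were higher. Of all 12197 genes tested, 13.1% were higher and 3.44% lower at that threshold, and 4715 had a negative fold change. The part of this difference in cell content in the members' levels was not tested.

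**Figure D3:**
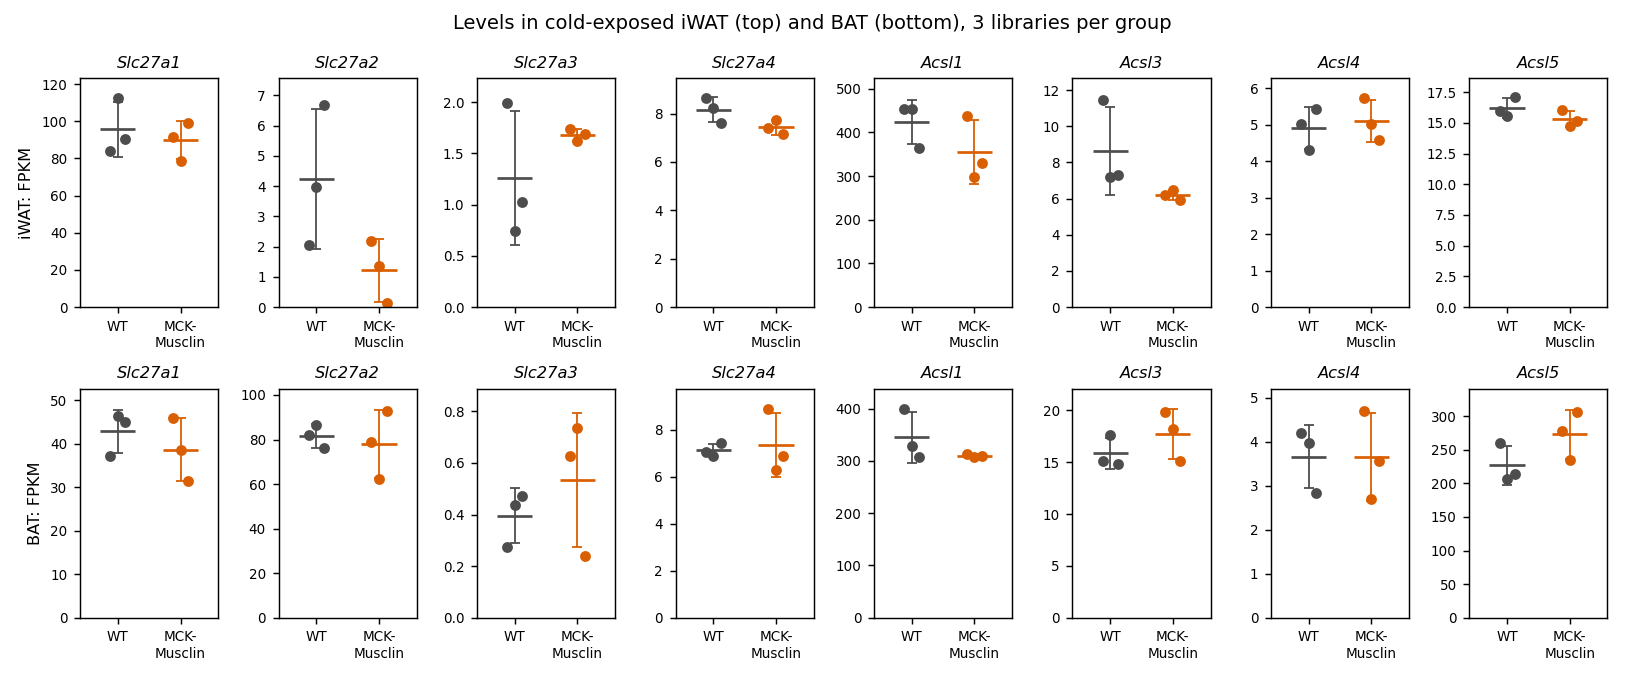
FPKM of 8 members in each library (points), with the group mean (line) and SD (bars), in cold-exposed iWAT (top) and BAT (bottom); every axis starts at 0. In iWAT the *Slc27a2* points run from 2.05 to 6.67 in WT and from 0.117 to 2.18 in MCK-Musclin libraries, and in BAT *Acsl5* reaches 307 in MCK-Musclin library 3.

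In BAT of the same design, 7 members passed the filter among 10893 genes, and *Slc27a3*, *Slc27a5* and *Acsl6* did not. With limma, 0 of the 7 were lower at an unadjusted p under 0.05, where 2.71% of all genes tested were, and 0 were higher, where 2.18% of all genes were. After adjustment 0 of the 7 and 0.00918% of all genes, that is 1 gene, had a p under 0.05. The groups overlapped for all 7, whereas MCK-Musclin values all lay under the WT values for 5.63% of genes and all over them for 4.38%.

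*Acsl5* came nearest to a difference in BAT. It had 260, 206 and 214 FPKM in the WT libraries and 278, 234 and 307 in the MCK-Musclin ones. WT library 1 lay above MCK-Musclin library 2, and the other 4 libraries were parted by genotype. The log2 fold change was 0.26 (standard error 0.13, 95% interval -0.04 to 0.57, limma adjusted p = 0.968). It was past the unadjusted threshold, at 0.37, without MCK-Musclin library 2, and likewise without WT library 1. Its opposite-strand neighbour *Zdhhc6* had 4.89 to 6.51 FPKM in WT and 6.09 to 7.72 in MCK-Musclin BAT. *Acsl1*, the other abundant synthetase, had 400, 329 and 307 FPKM in WT and 313, 307 and 310 in MCK-Musclin libraries, with a fold change of -0.15 (95% interval -0.40 to 0.10). As a share of the Acsl family, *Acsl5* was at 38.3%, 37.1% and 39.7% in WT and at 45.2%, 41.7% and 48.3% in MCK-Musclin mice. *Acsl1* was at 58.9%, 59.0% and 57.0% in WT and at 50.8%, 54.6% and 48.8% in MCK-Musclin libraries. The groups did not overlap in either share, which does not depend on the scaling of a library, but with 3 libraries against 3 the smallest two-sided p of an exact permutation test is 0.1, and the pattern was chosen after its values were seen. *Acsl1* and *Acsl5* make up nearly all of the family in BAT, so their shares mirror each other and count as 1 observation.

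For the transporters of BAT the groups overlapped. *Slc27a2*, the leading transporter, had 82.2, 86.4 and 76.0 FPKM in WT and 79.0, 62.1 and 92.9 in MCK-Musclin libraries, with a log2 fold change of -0.08 and an interval from -0.42 to 0.26. *Slc27a1* had 37.1, 46.4 and 44.8 FPKM in WT and 45.8, 38.5 and 31.4 in MCK-Musclin libraries (-0.16, interval -0.52 to 0.20), and *Slc27a4* had 6.90 to 7.43 and 6.28 to 8.87 (0.03, interval -0.29 to 0.34). *Acsl3* had 14.8 to 17.6 FPKM in WT and 15.2 to 19.9 in MCK-Musclin libraries (0.15, interval -0.15 to 0.45), and *Acsl4* 2.84 to 4.19 and 2.70 to 4.71 (-0.01, interval -0.46 to 0.44). *Slc27a3* lay between 0.240 and 0.734 FPKM over the 6 libraries and *Acsl6* between 0.0173 and 0.115, and *Slc27a5* was at 0 in 5 of them. The fast skeletal muscle markers moved with the genotype in BAT, with a summed level of 529 to 838 FPKM in WT and 874 to 1925 in MCK-Musclin libraries. At an unadjusted p under 0.05, 10 of 12 were higher, where 2.18% of all genes tested were. The 7 B cell markers summed to 0.396 to 0.953 FPKM there.

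**Figure D4:**
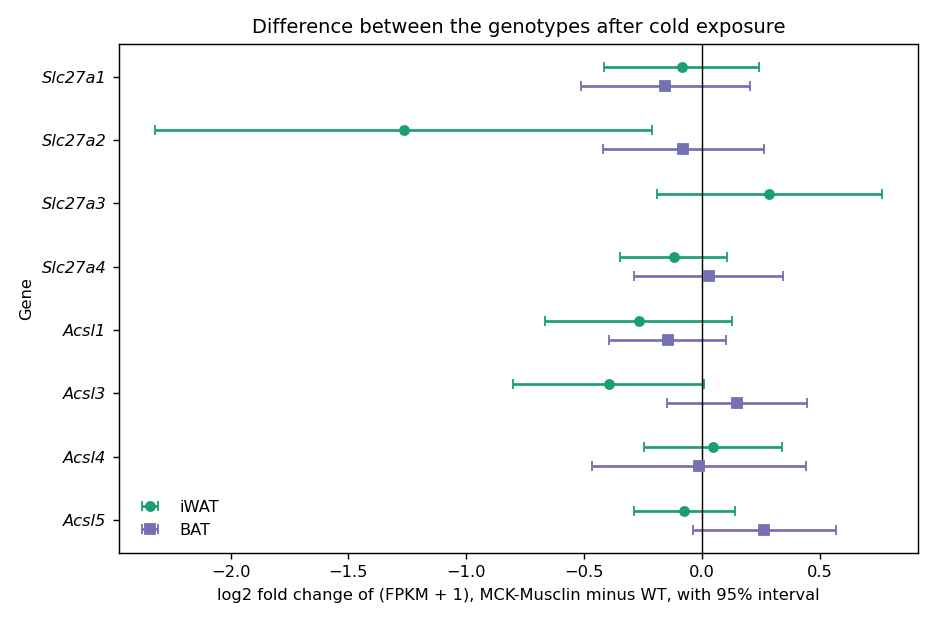
Log2 fold change of (FPKM + 1) between MCK-Musclin and WT mice (x axis) for 8 members in iWAT (circles) and 7 in BAT (squares), with 95% intervals from limma. Every interval crosses 0 except that of *Slc27a2* in iWAT, -2.32 to -0.21.

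Whether the genotype acted differently in the 2 depots was tested as the iWAT effect minus the BAT effect in 1 limma fit over 9757 genes, each effect being taken within its own table. Whether the depots came from the same animals is not stated, and the fit treats the 12 libraries as independent. Of the 7 members that passed the filter in both, 2 (*Acsl3* and *Slc27a2*) had an unadjusted p under 0.05, where 10.1% of all genes did, and 0 had an adjusted p under 0.05, as had 0% of all genes. The difference was -0.55 for *Acsl3* (standard error 0.22, 95% interval -1.03 to -0.06, limma adjusted p = 0.467), the fold change being -0.40 in iWAT and 0.15 in BAT. It was -1.18 for *Slc27a2* (standard error 0.52, 95% interval -2.33 to -0.04, limma adjusted p = 0.479). For *Acsl5* it was -0.34 (95% interval -0.70 to 0.02, limma adjusted p = 0.508). The difference of *Slc27a2* was -0.75 without iWAT MCK-Musclin library 3, and that of *Acsl3* -0.35 without iWAT WT library 1. Taking the libraries of the same genotype and number as 1 animal, *Slc27a2* no longer passed the unadjusted threshold and *Acsl3* did (limma adjusted p = 0.476 and 0.461).

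The steps on either side of acyl-CoA synthesis were examined with the same fits. In iWAT, 4 of the 8 carnitine shuttle genes were lower at an unadjusted p under 0.05 and 0 were higher, against the 3.44% and 13.1% of all genes. The count lower was also 4 under TPM and under median-ratio scaling, where 5.39% and 6.77% of all genes were lower, and after centring on the adipocyte markers 1 was lower and 1 higher. *Cpt2*, the inner-membrane carnitine palmitoyltransferase, had 86.8, 97.6 and 85.2 FPKM in WT and 77.9, 60.8 and 66.2 in MCK-Musclin libraries, all under the lowest WT value (log2 fold change -0.40, limma adjusted p = 0.190). *Crat*, carnitine acetyltransferase, had 58.0, 60.6 and 68.7 FPKM in WT and 55.5, 43.4 and 46.4 in MCK-Musclin libraries (-0.36, limma adjusted p = 0.219). The other 2 that were lower, named after their values were seen, were *Cpt1b* and *Slc25a20*, the carnitine-acylcarnitine carrier, with log2 fold changes of -1.44 and -0.67 and overlapping groups. Of the 8 other acyl-CoA synthetases tested, 1 was lower, *Acss3*, which activates propionate, with 17.8 to 19.7 FPKM in WT and 15.3 to 15.7 in MCK-Musclin libraries (-0.28, limma adjusted p = 0.197). Of 12 binding genes 1 was lower, *Fabp3* (-2.54, with overlapping groups), and 1 was higher, *Got2*, with 9.74 to 10.8 FPKM in WT and 11.9 to 13.8 in MCK-Musclin libraries (0.28, limma adjusted p = 0.242). Of 9 thioesterases 1 was lower, *Acot11* (-1.06, overlapping, named after its value was seen). The median log2 fold change was -0.22 over the carnitine shuttle, -0.15 over the other synthetases, -0.15 over the binding genes and -0.13 over the thioesterases, against 0.06 over all genes tested. The brown and beige fat markers and the fast skeletal muscle markers had negative fold changes in the same iWAT libraries, as given above. *Fabp3*, *Cpt1b* and *Crat* were also abundant in the libraries of TA muscle (196, 45.5 and 118 FPKM) and brown adipose (705, 154 and 98.0 FPKM), and the part of either tissue in these values was not tested. In BAT, 1 of the 35 genes of these lists that were tested had an unadjusted p under 0.05, *Acbd5*, which was higher (0.50) with overlapping groups and was named after its value was seen. Of all genes tested in BAT, 2.71% were lower and 2.18% higher at that threshold. *Cpt2* had 235, 218 and 241 FPKM in WT and 191, 217 and 211 in MCK-Musclin BAT, without passing the unadjusted threshold.

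The tissue panel and the cold-exposed WT libraries allow the levels of the members to be read side by side, although they come from separately deposited tables and other mice, and the panel mice had no cold exposure in their labels. Housing temperature, age and table cannot be told apart here, so no test was made. In brown adipose the panel library had 8.16 FPKM of *Acsl5*, and the WT libraries of cold-exposed BAT had 206, 214 and 260, a mean 27.8 times as high. Among the 10183 genes with at least 1 FPKM in both, this ratio was the 19th highest, where the median ratio was 0.824 and the 5th to 95th percentiles ran from 0.375 to 2.09. The overlapping gene *Zdhhc6* had 9.54 FPKM in the panel and a mean of 5.43 in the cold. *Acsl3* came next among the members, with 4.60 FPKM in the panel and 14.8 to 17.6 in the cold (3.44 times). The other 5 members above 1 FPKM stayed between 1.01 times for *Slc27a1* and 1.46 times for *Slc27a4*, among them *Acsl1* with 269 against 307 to 400 FPKM and *Slc27a2* with 66.7 against 76.0 to 86.4. *Acsl5* thus made up 2.86% of the Acsl family in the panel library and 37.1% to 39.7% in the cold WT libraries. Of the 9 brown and beige fat markers listed, 8 had every cold WT library of BAT above the panel value, and *Ppargc1a* (1.07 times) did not. The ratio was 1.31 for *Kng2*, 1.96 for *Cidea* and 6.90 for *Ucp1*, which had 467 FPKM in the panel library and 2778 to 3792 in the cold, while *Elovl3*, a fatty acid elongase of brown fat, had 0.0862 and 114 to 142.

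In white fat the values of *Acsl5* lay closer together. The panel's white adipose library had 14.8 FPKM and the WT libraries of cold-exposed iWAT 15.6 to 17.1. *Slc27a2* had the highest ratio of the members in white fat, with 1.51 FPKM in the panel and 2.05 to 6.67 in the cold (2.81 times, 338th of 11406 genes), and *Acsl4* (1.57 times), *Acsl1* (1.43), *Acsl3* (1.27) and *Acsl5* (1.10) also had every cold WT library above the panel value. *Slc27a1*, *Slc27a4* and *Slc27a3* had every cold WT library below it, at 0.818, 0.822 and 0.543 times. The median ratio of all genes was 0.943, and the 5th to 95th percentiles ran from 0.464 to 2.27. Of the members only *Slc27a2* lay outside that range. For neither fat was it counted how many of all genes had every cold WT library on the same side of the panel value. The brown and beige fat markers stood higher in the cold as well, with *Ucp1* at 0 in the panel and 130 to 346 FPKM in cold WT iWAT, *Cidea* at 0.385 and 290 to 427, and 8 of the 9 above the panel value in every cold WT library. Since the depot of the panel's white adipose library is not stated, depot and temperature cannot be told apart either.

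**Figure D5:**
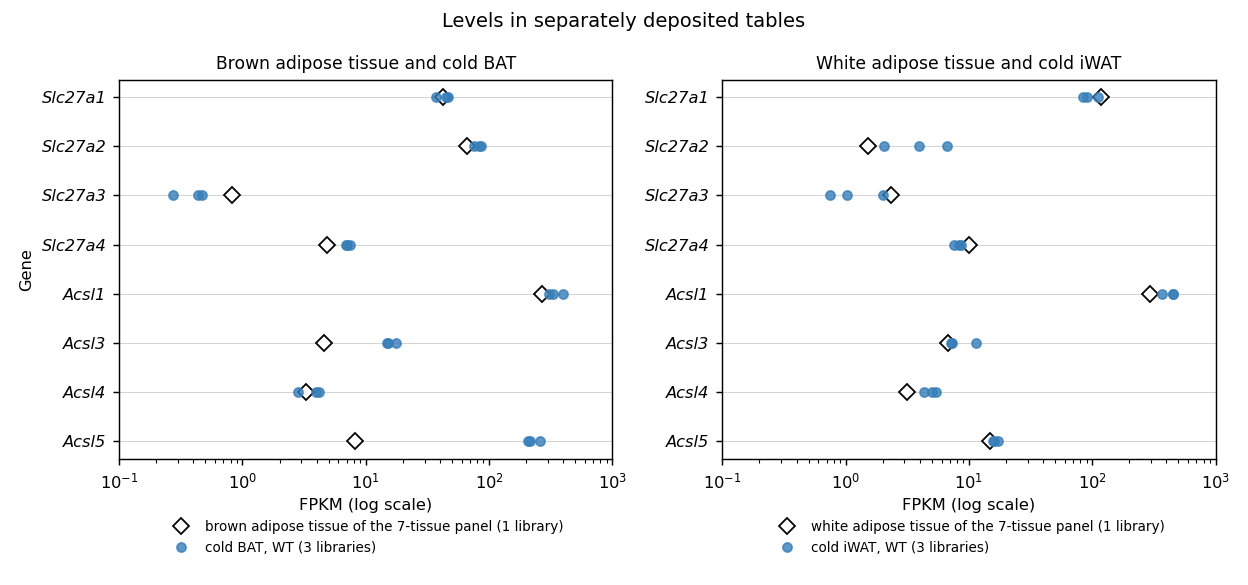
FPKM (log scale) of 8 members in the brown adipose library of the 7 tissues (open diamond) and 3 cold-exposed WT BAT libraries (points) on the left, and in the white adipose library and 3 cold-exposed WT iWAT libraries on the right. *Acsl5* lies at 8.16 and 206 to 260 in brown fat, the widest gap of the 8 genes on either side.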

How the data were processed

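Poly(A) RNA-Seq tables of 7 tissues, BAT and iWAT were analysed, 19 libraries in all. The authors aligned filtered reads with HISAT2 2.1.0 to GRCm38, in a mode that ignores strand, and deposited FPKM per gene and library. The study's methods name StringTie 2.0 for the FPKM, whereas the submitters' processing notes name Cuffdiff. Which of them made the deposited values was not settled here. Columns of the authors' own DESeq2 comparison in the iWAT table (log2 fold changes, p-values and FDR, group means) were not used. The BAT and 7-tissue tables each repeat 287 gene lines with the same values, which were used once.

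Groups follow the labels. MCK-Musclin and WT libraries were compared within each table by limma 3.58.1 in R 4.3.3 (lmFit, eBayes with trend) on log2(FPKM + 1), over genes whose mean FPKM over the 6 libraries reached 1, with Benjamini-Hochberg adjustment over all genes tested. The fits were checked on simulated data. With 3 libraries against 3 an exact permutation test cannot go below p = 0.1, and p-values measure the spread between these animals. Fragment totals were estimated from the spacing of low FPKM of genes with 1 transcript, and they are not read counts, which were not analysed here. Libraries were read and figures drawn with Python 3.11.15, pandas 2.3.3, numpy 2.4.6 and matplotlib 3.10.9. Members, pathway lists and marker lists were chosen with earlier results of these data known. All members were named. A gene of the pathway lists was named where its unadjusted p was under 0.05 with groups that did not overlap, or where it was the highest of its list in a tissue. The nearest gene to each member over the 7 tissues was named too. The alternatives tried were pseudocounts of 0.1 and 0.01, a filter at a mean of 5 FPKM or no filter, TPM, median-ratio scaling, centring on the adipocyte markers, robust or untrended eBayes, a replicate block and leaving out each library.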

Additional observations from a re-analysis of the deposited data

How the results depend on the processing

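The number of members called in iWAT moved with the processing. At an unadjusted p under 0.05 in limma, 1 was lower, and this became 0 with a pseudocount of 0.01 and 0 with the filter at a mean of 5 FPKM, which leaves *Slc27a2* out, but 2 with TPM, 2 with median-ratio scaling and 0 to 2 when 1 library was left out (2 without MCK-Musclin library 1, 0 without MCK-Musclin library 3). The share of all genes called lower rose with TPM and median-ratio scaling too, from 3.44% to 5.39% and 6.77%. The number of members higher in iWAT was 0 and became 0 to 1 without 1 library, the 1 without WT library 1. Of all genes, 13.1% were higher in the main setting and 13.4% without WT library 1. In BAT the number of members higher was 0, 1 after centring on the adipocyte markers and 0 to 1 without 1 library (1 without WT library 1 or MCK-Musclin library 2). Of all genes in BAT, 2.18% were higher in the main setting and 2.73% after centring. Without WT library 1 or MCK-Musclin library 2 that share was 1.84% or 2.73%. The number of members whose effect differed between the depots was 2, and 1 with a pseudocount of 0.1 or 0.01 or the filter at a mean of 5, 0 after centring on the adipocyte markers, and 0 to 2 without 1 library. In the main setting 10.1% of all genes differed in this way, and the share under the alternatives is not given here. The number of members with an adjusted p under 0.05 in limma was 0 in both depots under every alternative run. Over all genes in iWAT it was 1843 of 12197 after centring on the adipocyte markers and 86 of 12216 without WT library 1. Without MCK-Musclin library 2 or 3 it was 2 or 1, and in every other setting it was 0. In BAT it was 1 of 10893 genes in the main setting and at most 4, without MCK-Musclin library 1. Members of iWAT with every MCK-Musclin library below WT numbered 1, 2 with TPM, 3 with median-ratio scaling, 0 after adipocyte centring and 1 to 4 without 1 library, and those above numbered 0, or 0 to 1 without 1 library. In BAT those below numbered 0, or 0 to 1 without 1 library, and those above 0, 1 after adipocyte centring and 0 to 1 without 1 library. These 2 counts and the alternatives of single members' depot differences were added after seeing the data. The share of all genes parted in this way is given above for the main setting only. The counts under the alternatives therefore cannot show whether the members moved more than other genes.

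The same replicate numbers occur in both groups, but the labels tie them to no shared animal or batch and not every correlation passed 0.1, with correlations of deviations of 0.235, 0.0615 and 0.107 in iWAT and of -0.0951, -0.0046 and 0.0094 in BAT. With the replicate number as a block, 0 members were lower in iWAT, where 3.92% of all genes were, and 1 differed between the depots. In iWAT 5 of 6 libraries correlated best with their own number, MCK-Musclin library 2 being the exception, and in BAT 0 of 6 did. Across depots, libraries of the same genotype and number had correlations from -0.0283 to 0.143, and with each such pair as a block, added after seeing the data, 1 member differed between the depots.

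Centring on the adipocyte markers moved the median log2 fold change of all genes in iWAT from 0.06 to 0.26, and *Slc27a1* (0.11), *Slc27a4* (0.074) and *Acsl5* (0.12) turned positive there while staying below that median. Small fold changes also changed sign for *Slc27a1* in iWAT (0.032 without WT library 2, 0.0032 without MCK-Musclin library 2, from a lowest of -0.17 without WT library 1), *Acsl4* in iWAT (-0.019 with median-ratio scaling, -0.028 without WT library 2, -0.02 without MCK-Musclin library 1), *Slc27a2* in BAT (0.073 without MCK-Musclin library 2, from -0.21 without library 3), *Slc27a4* in BAT (-0.10 without MCK-Musclin library 1) and *Acsl4* in BAT (0.0093 with TPM, 0.054 after adipocyte centring, and from -0.17 to 0.14 without 1 library). *Slc27a2* in iWAT stayed negative in all 15 alternatives that gave a value, from -2.39 to -0.83, with adjusted p from 0.123 to 0.471 in limma. The cause of these shifts was not tested. FPKM tables carry no fragment counts for iWAT, so the precision of *Slc27a2* at 0.117 FPKM is unknown.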
